A study of Mus musculus with 96 samples.

Results

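Ribosome biogenesis and nucleolar genes were followed in single C10 cells, a mouse lung line labelled as alveolar type II epithelial. The 38 genes are a list of names: nucleolin and other abundant nucleolar proteins, proteins of the small nucleolar ribonucleoproteins (snoRNPs), RNA polymerase I and its factors, and assembly factors of the small (40S) and large (60S) ribosomal subunit. All 38 had a row among the 40202 genes of the files. The study compared 48 untreated cells (control) with 48 cells given RO-3306, a small molecule known as a CDK1 (cell cycle kinase) inhibitor, at 10 nM for 36 h per the labels. Both groups are the same line in the same medium, and no other agent or allele is named for either. Libraries of at least 50000 counts and 1000 genes with a count were kept, which left 29 control and 37 RO-3306 cells.

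The labels name no separate culture, so the cells of a group were treated as 1 sample and no test was made. Titles place the cells in sets lettered A to D in each group, without saying what the letters stand for. The sets are not replicates and serve only to show whether a direction recurred. The kept control cells held 59979 to 6457215 counts and the kept RO-3306 cells 295005 to 5321880. Of 9 alveolar type II markers, Sftpa1, Sftpc, Sftpd and Slc34a2 were at 0 in both groups, and the list's sum was 23.5 CPM (counts of each 1000000 in the group) in control against 27.7 in RO-3306. Of 6 epithelial markers, the sum was 1.78 and 0.978 CPM, while that of 6 mesenchymal markers was 5579 and 2523 CPM. The label of an alveolar type II cell therefore had little support in its defining markers. The sum of 7 macrophage markers, Cd68 among them, was 32.2 CPM in control against 336 in RO-3306, with Ptprc and Marco at 0 in control and Adgre1, Csf1r and Marco at 0 in RO-3306. Their part in the results was not tested.

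Ribosomes are made in the nucleolus. RNA polymerase I copies the ribosomal DNA into a long precursor, box C/D snoRNPs methylate it and box H/ACA snoRNPs turn chosen uridines into pseudouridine. The small subunit (SSU) processome folds and cuts the part that becomes 18S rRNA, and separate factors build the 40S and 60S particles and carry them towards the cytoplasm. Growing and dividing cells make many ribosomes, and the transcription factor MYC is known to drive many of these genes through the E-box CACGTG.

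Because that motif is the known link between MYC and these genes, promoters were searched for it. RefSeq windows on GRCm38.p6, from 250 bases before to 50 after the annotated start, were matched for 33 of the 38 genes. CACGTG, which reads the same on both strands, occurred in 9 of the 33 (27.3%), against 12.2% of the 7559 matched genes of at least 5 CPM and 8.09% of all 27025 matched genes. The sites are shown with up to 12 bases on each side, on the strand of the gene, with the E-box in capitals.

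Ltv1: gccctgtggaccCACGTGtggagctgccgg

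Mybbp1a: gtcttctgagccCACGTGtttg

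Wdr43: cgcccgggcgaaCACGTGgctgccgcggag

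Utp20: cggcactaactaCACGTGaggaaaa

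Utp4: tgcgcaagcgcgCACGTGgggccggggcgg

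Pes1: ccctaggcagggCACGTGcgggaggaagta

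Tsr1: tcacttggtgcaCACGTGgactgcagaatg

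Nop2: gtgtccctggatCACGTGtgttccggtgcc

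Rrn3, far site: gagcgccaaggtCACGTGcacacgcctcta

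Rrn3, near site: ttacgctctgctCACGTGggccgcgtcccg

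The printed windows lie at chr10:13193092-13193121 on the minus strand (Ltv1), chr11:72441355-72441376 on the plus strand (Mybbp1a), chr17:71616220-71616249 on the plus strand (Wdr43), chr10:88826765-88826789 on the minus strand (Utp20) and chr8:106893643-106893672 on the plus strand (Utp4). Those of Pes1 at chr11:3963965-3963994, Tsr1 at chr11:74898092-74898121, Nop2 at chr6:125131811-125131840 and Rrn3 at chr16:13780472-13780501 and chr16:13780639-13780668 are on the plus strand. In 7 of the 9 genes the E-box began 2 to 40 bases after the annotated start, so it lay in the first transcribed bases. The exceptions were Nop2, at -60, and Rrn3, at -215 and -48. A site at or after the start occurred in 21.2% of the matched members and in 2.02% of the matched genes of at least 5 CPM, a measure chosen after the positions were seen. TCGCGA, searched on both strands, occurred in 4 of the 33 genes (12.1%, against 6.34% of matched genes of at least 5 CPM), and CCGGAAG, also on both strands, in 10 (30.3%, against 22.5%). Of the matched members that could be called, 4 of 9 with CACGTG and 7 of 23 without it were at least 2-fold lower in RO-3306. The share of all genes of at least 5 CPM was 24.2%. The median log2 ratios of the members with and without CACGTG were -0.98 and -0.64. Bop1, Rrs1, Fbl, Rrp12 and Npm1 had no matched window and are in neither count. Among the 4 was Utp20, whose ratio of -2.04 became 2.21 without set B. A match is a description of the letters and not a bound site.

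In the summed cells, the genes were lower in RO-3306 more often than higher. Counts were summed per group, given as CPM, and compared as a log2 ratio of RO-3306 over control with 1 CPM added to each. Of the 38 genes, 37 reached a mean of 5 CPM and could be called at a 2-fold difference. Lower by that rule were 14 of 37 (37.8%), among 24.2% of the 9374 genes of at least 5 CPM, and higher were 2 (5.41%), among 12.2%. The median log2 ratio of the 37 was -0.65, beside -0.22 for all genes, and 29 of 37 (78.4%) lay below 0, beside 59% of all genes. The median of all genes moved by 0.21 with TMM factors and 0.24 with DESeq2 size factors, under which 27 of the 37 lay below 0 and Rrn3 and Rrp1 changed side. Their summed level was 7152 CPM (7131 to 7172) in control against 5515 CPM (5500 to 5531) in RO-3306, for a log2 ratio of -0.37. These and the later brackets after CPM are exact Poisson 95% intervals. They cover counting error only, and reads without molecular identifiers include PCR copies.

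The direction recurred across the lettered sets for some genes only. Ncl, Nolc1, Mybbp1a, Fbl, Nop56, Wdr43, Utp4 and Ltv1 were lower in all 4 sets, which is 21.6% of the 37 beside 10.3% of all genes. Utp15 was higher in all 4 (2.7% beside 13.1%; 7.23% of all genes were both at least 2-fold higher and higher in every set), and 28 genes had no single sign. Set D held the fewest kept cells, 5 control and 6 RO-3306. Ncl, Mybbp1a, Fbl, Wdr43 and Ltv1 were both at least 2-fold lower and lower in every set (13.5% beside 6.43%). The summed level of the 38 genes was lower in all 4 sets, with log2 ratios of -0.30, -0.38, -0.22 and -0.71 in A to D.

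**Figure D1:**
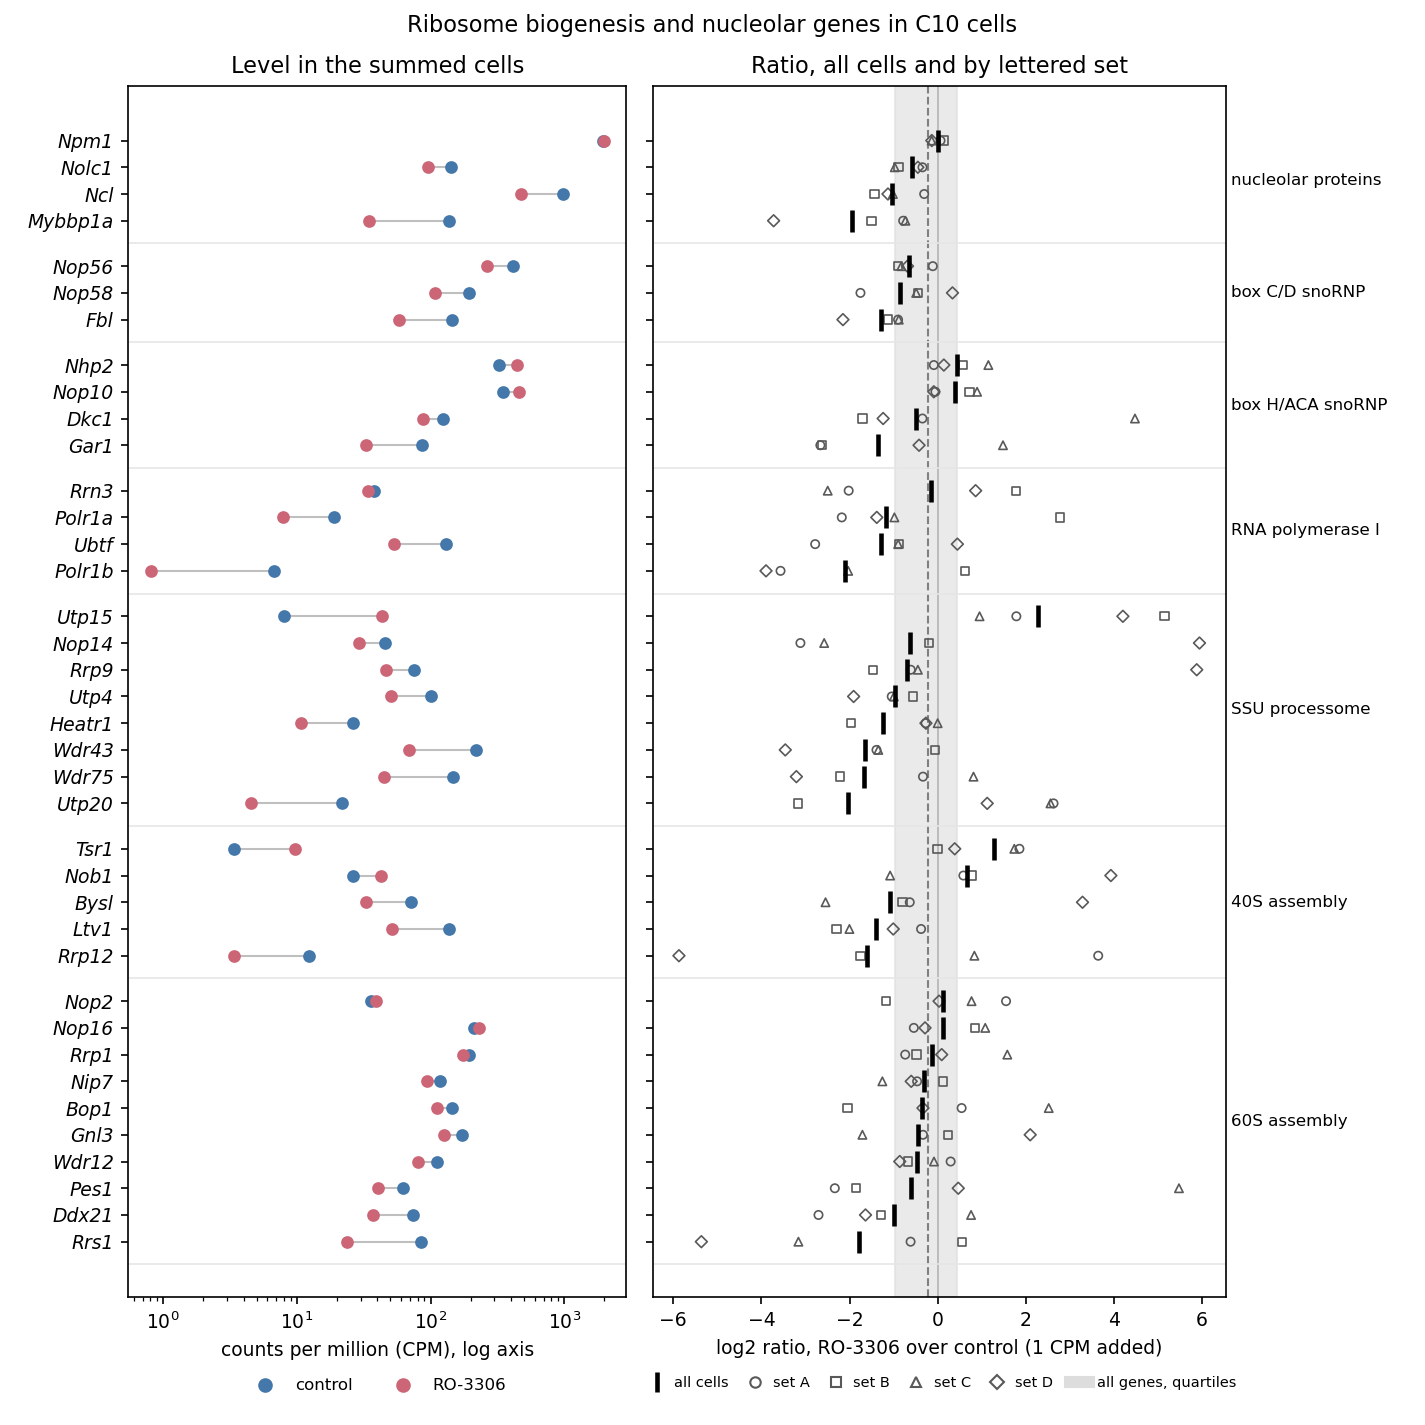
Level and ratio of the 38 genes, grouped by role. Left, CPM in the summed control (blue) and RO-3306 (red) cells on a log axis; right, log2 ratio of RO-3306 over control for all cells (bar) and for sets A to D (open symbols), with the quartiles of all genes shaded and their median of -0.22 dashed. Npm1 stayed near 0 in every set, while genes such as Nop14, Rrp9 and Rrp12 were spread widely over the sets.

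Among the abundant nucleolar proteins, nucleolin was lower and nucleophosmin was not. Ncl (chr1:86272441-86287177 on GRCm39, minus strand) encodes nucleolin, which binds the ribosomal RNA precursor. Per control cell its level ran from 6.61 CPM over a median of 698 to 2557 CPM, and per RO-3306 cell from 0 over 382 to 1832 CPM. The ranges overlapped, with the RO-3306 cells shifted down. Summed, Ncl stood at 977 CPM (969 to 985) in control against 476 CPM (471 to 480) in RO-3306, for a log2 ratio of -1.04. The ratio was -0.31 in set A and -1.43, -1.02 and -1.13 in sets B, C and D. The summed control level ran from 677 CPM in set A to 1277 CPM in set B, and the RO-3306 level only from 448 to 548 CPM. Ncl sat just past the 2-fold line, and it was short of it under 6 of 19 other settings. Settings that only change the filter on low values or leave out Npm1 cannot move the ratio of Ncl or of the called genes below.

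Npm1 (chr11:33102498-33114143, minus strand) encodes nucleophosmin, the histone-binding chaperone of the outer nucleolus. It was found in every kept cell, at 670 to 3265 CPM (median 1761) in control cells and 756 to 3784 CPM (median 1904) after RO-3306. The summed levels were 1963 CPM (1953 to 1974) and 1967 CPM (1958 to 1976), with set ratios from -0.14 to 0.14. It was the most abundant of the 38, and without it their sum went from 5188 to 3549 CPM, a log2 ratio of -0.55. Its counts were fractional in 71.6% of the libraries that had any, because the authors split reads that map to several places, so part of its level is shared with similar sequences. Per kilobase of coding sequence Npm1 was the highest of the 38 in control, at 2241 CPM, followed by Nop10 at 1828 CPM, while Ncl stood at 461 CPM. Per kilobase of annotated mRNA, Npm1 stood at 1202 CPM and Ncl at 119 CPM. Reads were counted over whole gene spans, so these values depend on the length used.

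Mybbp1a (chr11:72332153-72342596, plus strand) encodes a nucleolar partner of MYB that also binds polymerase I. Control cells ran from 0 over a median of 44.3 to 563 CPM, and RO-3306 cells from 0 over 2.48 to 786 CPM. The highest single cell was thus an RO-3306 cell, B3. That cell had the fewest counts of the kept RO-3306 cells, 295005, and 56.0% of them were mitochondrial. B3 was too shallow to be thinned. At equal depth the top control cell reached 601 CPM, above the 191 CPM of the top RO-3306 cell. A deeper RO-3306 cell, A5, held the most counts, 29.5% of those of its group. Summed, 137 CPM in control stood against 34.9 CPM in RO-3306, for a log2 ratio of -1.94, with -0.78, -1.50, -0.73 and -3.72 in sets A to D. Without cells over 20% mitochondrial counts the ratio was -2.04. Nolc1, a chaperone of snoRNPs, had 143 and 95.1 CPM and a ratio of -0.59, lower in every set but short of 2-fold.

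Of the 3 box C/D proteins, 1 (33.3%, beside 24.2% of all genes) was called lower, Fbl. The summed level of the 3 went from 755 to 430 CPM, and the log2 ratio of the sum was -0.73, -0.81, -0.75 and -0.88 in sets A to D. Fbl (chr7:27868345-27878694, plus strand) encodes fibrillarin, the methyltransferase of the particle. It ran from 0 over a median of 117 to 409 CPM in control cells, against 0 over 45.4 to 202 CPM among RO-3306 cells. The RO-3306 cells sat lower although nearly the same share had a count: at equal depth it was found in 24 of 25 control and 33 of 34 RO-3306 cells. The summed level was 145 CPM (142 to 148) against 58.3 CPM (56.8 to 59.9), 2.48-fold lower, with set ratios of -0.90, -1.13, -0.88 and -2.15. Fbl stayed at least 2-fold lower under all 19 other settings, its log2 ratio lying between -1.55 and -1.02. Nop56 (chr2:130112904-130121233, plus strand) and Nop58 are the paired scaffold proteins of the particle. Nop56 had 415 CPM in control against 265 in RO-3306 (-0.65; lower in each set), and Nop58 had 195 and 107 CPM (-0.85; higher in set D, at 0.34). Nop56 counts were fractional in 79.4% of libraries with any, so they too are shared with similar sequences.

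The box H/ACA proteins did not move as one. Summed, they had 886 CPM in control against 1021 in RO-3306. The log2 ratio of the sum was -0.21, 0.20, 1.17 and -0.18 in sets A to D. Nhp2 (chr11:51510600-51514545, plus strand), a protein that binds the guide RNA, ran from 0 over 322 to 1374 CPM in control cells, against 0 over 423 to 1057 CPM among RO-3306 cells. Its summed levels were 326 and 439 CPM (0.43). Nop10 (chr2:112092271-112093243, plus strand), the smallest protein of the core, had 351 and 460 CPM (0.39), with ratios of -0.05 and -0.09 in sets A and D and 0.72 and 0.90 in B and C. Of the 4 genes of this group, 1 (25%, beside 24.2% of all genes) was called lower. This was Gar1, which helps release the product from the enzyme, with 85.6 and 32.9 CPM (-1.35). Its set ratios were -2.66, -2.62, 1.48 and -0.42, so set C went the other way. Dkc1, the pseudouridine synthase dyskerin, had 124 and 88.3 CPM (-0.49), with a ratio of 4.48 in set C and negative ratios in the others.

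Apart from Ubtf, the members for RNA polymerase I were scarce, and the set values of the group disagreed. Polr1a, the largest subunit, had 18.9 CPM in control against 7.88 in RO-3306 (-1.16), and 1 control cell, A3, held 75.6% of its control counts. Ubtf, the factor that opens ribosomal DNA, had 130 and 53.0 CPM (-1.28), with -2.78 in set A and 0.45 in set D. Rrn3, which brings the polymerase to the promoter, had 37.8 CPM in control against 34 (-0.15), and its set signs split evenly. Polr1b, the second-largest subunit, was the member left uncalled, with 6.79 CPM in control, 0.808 CPM in RO-3306 and a mean of 3.80 CPM; it was found in 6 of 29 control and 2 of 37 RO-3306 cells. The callable member with the lowest mean was Tsr1, at 6.52 CPM.

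Among the 37 callable genes, the SSU processome held both the lowest and the highest ratio. Of its 8 genes, 4 (50%) were called lower and 1 (12.5%) higher, beside 24.2% and 12.2% of all genes. The median of the 8 was -1.10. Wdr43 (chr17:71923175-71966026, plus strand), a subunit of the UTP-A complex, ran from 0 over a median of 25.8 to 2242 CPM in control cells, against 0 over 20.4 to 304 CPM among RO-3306 cells. The medians were close before thinning and 81.4 against 23.5 CPM at equal depth. The highest cells were control cells, of which D9 held 22.6% of the control counts. Summed, 218 CPM stood against 68.6 CPM (-1.65), with -1.39, -0.05, -1.35 and -3.46 in sets A to D. It stayed past 2-fold under all 19 other settings. Wdr75 (chr1:45834313-45862798, plus strand), of the same complex, had 146 and 45.1 CPM (-1.67), with 0.81 in set C, and control cell D7 held 32.1% of its control counts. Utp4, also of this complex, had 101 and 50.6 CPM, a ratio of -0.98 just short of 2-fold, and was lower in every set.

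Utp15 (chr13:98383353-98399500, minus strand), a further UTP-A subunit, was the exception to the common direction. It was found in 5 of 29 control and 18 of 37 RO-3306 cells. At equal depth that was 12% of control cells (exact Clopper-Pearson 95% interval 2.55 to 31.2%) and 52.9% of RO-3306 cells (35.1 to 70.2%). These intervals treat cells as independent draws and do not cover the spread between cultures. Of all genes of at least 5 CPM, 71.9% were found in a larger share of RO-3306 cells at equal depth. The median cell was at 0 in both groups and the highest cells reached 422 and 253 CPM. Summed, 8.06 CPM (7.39 to 8.77) in control stood against 43.1 CPM (41.8 to 44.4) in RO-3306, for a log2 ratio of 2.28, with 1.79, 5.15, 0.95 and 4.20 in sets A to D. Control cell C2 alone held 53.5% of its control counts. The log2 ratio of Utp15 was 0.97 with cells weighted equally and 0.90 with cells thinned, both short of 2-fold. Genes of one complex thus stood on opposite sides.

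Utp20 (chr10:88582469-88662676, minus strand), a large scaffold of the processome, had the lowest ratio of the callable members, -2.04, from 21.7 and 4.51 CPM. This rested on control cell B1, which held 73.4% of the control counts. Sets A, C and D had ratios of 2.63, 2.56 and 1.12 and set B had -3.17, and without set B the ratio was 2.21. It was found in 6 of 29 control and 12 of 37 RO-3306 cells. Heatr1 had 26.5 and 10.7 CPM (-1.23), Nop14 45.6 and 29 CPM (-0.64) and Rrp9, which binds the U3 snoRNA, 75.5 and 46.2 CPM (-0.70).

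Among the 40S assembly factors, 3 of 5 (60%) were called lower and 1 (20%) higher, beside 24.2% and 12.2% of all genes. Of the 5, only Ltv1 was lower in all 4 sets. Ltv1 (chr10:13054341-13068881, minus strand), which holds the beak of the immature subunit, ran from 0 to 647 CPM in control cells, against 0 to 229 CPM among RO-3306 cells, with medians of 0 and 0.748. The summed levels were 136 and 51.0 CPM (-1.40), with its least negative set ratio, -0.38, in A and its most negative, -2.29, in B. At equal depth the median cells stood at 20.3 and 6.26 CPM, and the upper control cells lay above all RO-3306 cells. Bysl, the bystin factor, had 70.9 and 33 CPM (-1.08), and its set D ratio was 3.29. Rrp12, an export factor, had 12.2 and 3.36 CPM (-1.60), with set ratios from -5.87 to 3.64. Tsr1 (chr11:74788906-74800166, plus strand), a GTPase-like factor of late 40S assembly, had 3.41 and 9.64 CPM (1.27) and was found in 3 of 29 and 9 of 37 cells. Of its span, 47.2% lies within spans of other genes, where the count left reads out. Nob1 (chr8:108139121-108151670, minus strand), the nuclease that makes the 18S end, had 26.3 and 42.6 CPM (0.67).

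The 60S assembly factors had a median of -0.41, and 1 of 10 (10%) was called lower, beside 24.2% of all genes. That gene was Rrs1 (chr1:9615633-9617680, plus strand), which recruits the 5S particle. It ran from 0 over a median of 6.07 to 691 CPM in control cells, against 0 over 0 to 128 CPM among RO-3306 cells. Summed, 84.2 CPM stood against 23.6 CPM (-1.79), with -0.61, 0.55, -3.16 and -5.36 in sets A to D. Ddx21, an RNA helicase, had 74.5 and 36.8 CPM, 2.02-fold lower before the 1 CPM was added and just short of the line after it. Pes1, Bop1 and Wdr12, which form the PeBoW complex, had ratios of -0.61, -0.36 and -0.48. Nop16 (chr13:54732004-54737921, minus strand), the most abundant of the group, had 211 and 231 CPM (0.13). The other 4 genes lay between -0.45 for Gnl3 and 0.13 for Nop2.

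Single cells differed from the sums in how the genes were spread. Over the 38 genes, the cell with the most counts of a gene held a median of 21.9% of the control counts and 16% of the RO-3306 counts. The summed level per cell ran from 720 over a median of 6565 to 13377 CPM in control and from 3547 over 5347 to 7280 CPM in RO-3306. Control cells were thus the more spread, and every RO-3306 cell lay within the control range. Of the RO-3306 cells, 33 of 37 lay below the control median, and 6 of 29 control cells lay below the RO-3306 median. The lowest control cell, C3, had a count for 6 of the 38 genes.

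**Figure D2:**
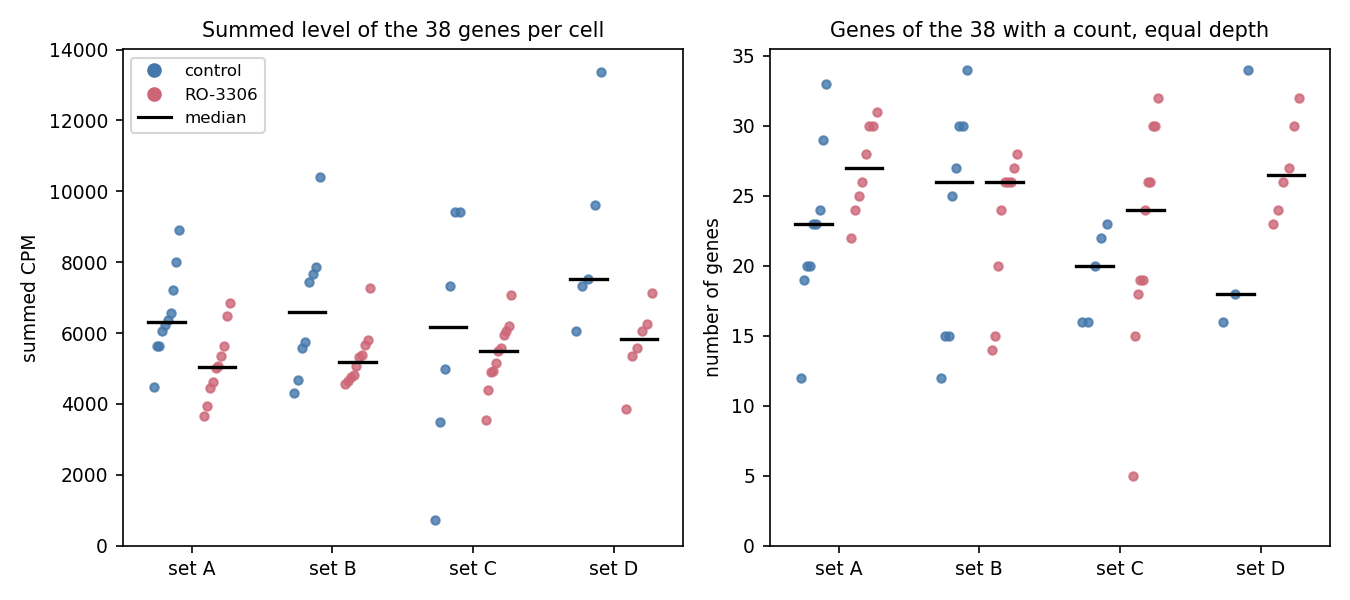
Each point is a kept cell, by lettered set, with control in blue, RO-3306 in red and the median as a bar. Left, summed CPM of the 38 genes; right, how many of them had a count after each cell was thinned to 639000 reads. The summed level was lower in RO-3306 in every set, with control medians of 6303, 6589, 6159 and 7517 CPM against 5046, 5192, 5487 and 5821 CPM, while the median number found at equal depth was 26 in both groups in set B and higher in RO-3306 in sets A, C and D.

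More of these genes were found in the median RO-3306 cell than in the median control cell, except in set B. With each cell thinned to 639000 reads (25 control and 34 RO-3306 cells were deep enough; 4 and 3 were left out), the median number with a count was 22 in control and 26 in RO-3306. Without thinning it was 22 and 27. In set B the medians were 26 in both groups with thinning, and 27.5 in control against 25.5 in RO-3306 without it. All genes found per thinned cell also had a higher median in RO-3306, 5980 against 4578. Across cells, the number of members found and the number of genes found had a Spearman correlation of 0.78 over 25 control cells and 0.86 over 34 RO-3306 cells, values that share library and depth. Of the 37 genes, 22 (59.5%) had a count in a larger share of RO-3306 cells, beside 71.9% of all genes, a share that is not above that of all genes. A lower CPM went with a larger share of cells for 16 of the 37 (43.2%, beside 35.1% of all genes).

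For 9 genes the summed CPM was lower in RO-3306 but the median cell at equal depth was higher: Rrn3, Utp4, Rrp9, Bysl, Pes1, Bop1, Wdr12, Nip7 and Gnl3 (24.3% of the 37, beside 13.6% of all genes). Wdr12 was found in 48% of thinned control cells and 82.4% of thinned RO-3306 cells, with median cells at 0 and 79.0 CPM, although its sums were 112 and 80.4 CPM. Rrp9 was found in 40% and 76.5%, with medians of 0 and 32.9 CPM. The thinned medians of Utp4 (1.56 and 3.91 CPM) and Rrn3 (1.56 and 2.35 CPM) lie near the worth of 1 read and show no order. Between pairs of the 10 members found in at least 75% of thinned cells, the correlation across cells had a median of 0.04 in each group, with single pairs between -0.26 and 0.58 in control and between -0.37 and 0.46 in RO-3306.

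**Figure D3:**
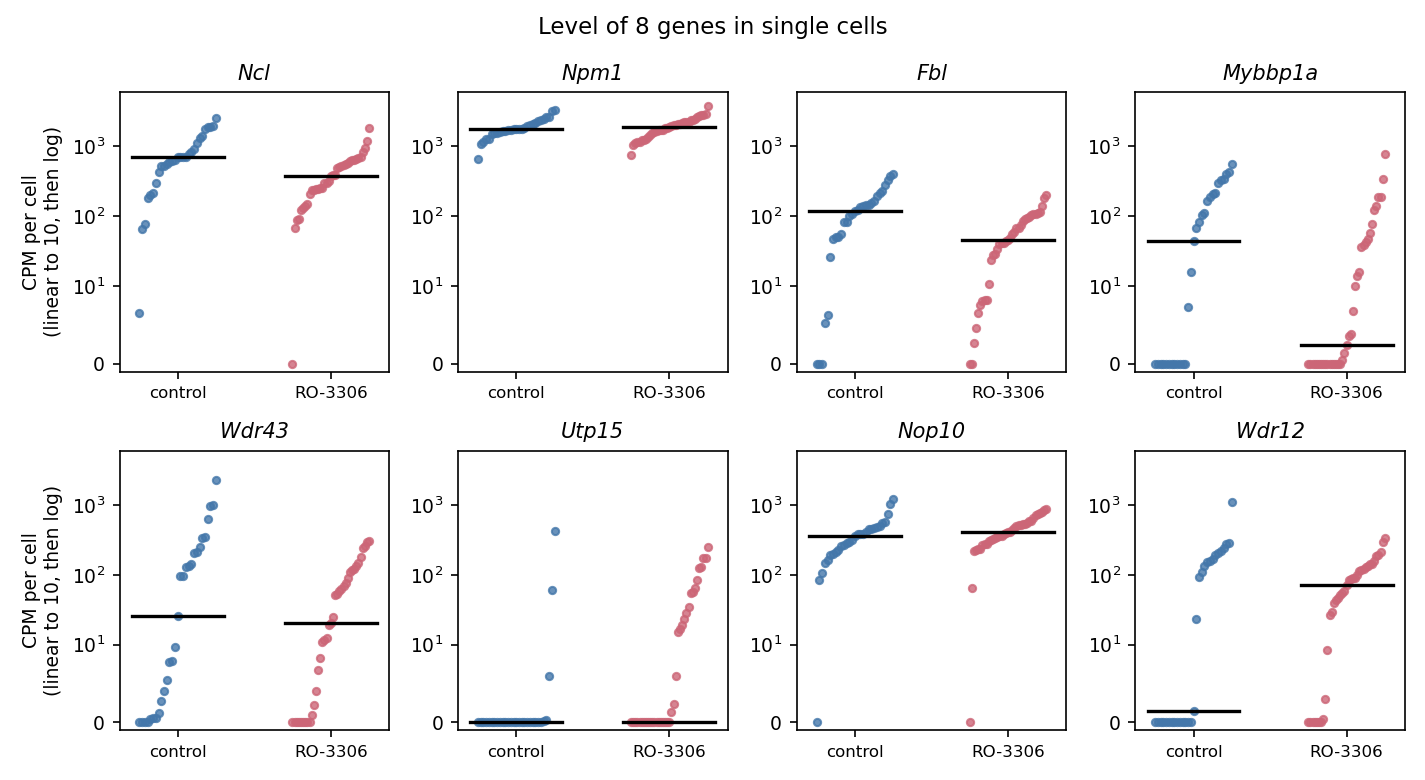
CPM per kept cell for 8 genes, sorted within control (blue) and RO-3306 (red), on an axis that is linear to 10 CPM and logarithmic above, with the median as a bar. Fbl was lower across the RO-3306 cells and Npm1 was alike, Utp15 was at 0 in most control cells, and Wdr12 had a median near 0 in control and 72.7 CPM in RO-3306.

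Long genes were lower in RO-3306 over the whole transcriptome. Over 10 classes of annotated mRNA length, the median log2 ratio of all genes went from 0.26 in the shortest class to -0.88 in the longest. The members followed this, with medians of -0.29 in the 12 shortest, -0.59 in the next 13 and -1.12 in the 12 longest, of which 8 were called lower. Relative to genes of similar mRNA length, the median of the 37 was -0.35 and 9 were called lower (beside 15.1% of all genes). Relative to genes of similar coding length it was -0.21 and 5 were called lower (beside 14.8%), a share near that of all genes. Fbl, Gar1 and Rrs1 are short and stayed past 2-fold under both, at -1.25, -1.45 and -1.60 by coding length, as did Wdr43 and Ltv1, at -1.05 and -1.22. Ncl fell short under both, at -0.14 and -0.43, though its annotated mRNA of 8202 bases holds only 2121 coding bases.

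**Figure D4:**
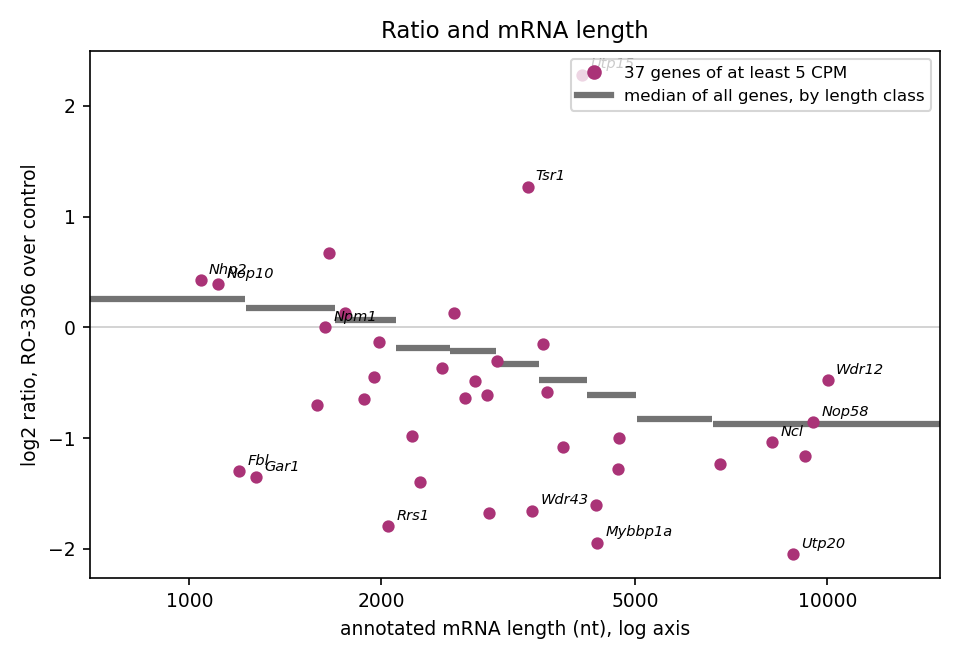
Log2 ratio of RO-3306 over control against annotated mRNA length (log axis) for the 37 genes of at least 5 CPM, with grey bars for the median of all genes in each length class. Fbl, Gar1 and Rrs1 lie well below genes of their length, and Ncl and Nop58 lie near theirs.

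Other genes of ribosome biogenesis, from a list of 123 in the files, had a median close to that of all genes, at -0.21 beside -0.22. Of 113 that reached 5 CPM, 19 (16.8%) were called lower, beside 24.2% of all genes. Higher were 6 (5.31%), beside 12.2% of all genes, so both shares lay below those of all genes. The lowest of those with a mean of at least 20 CPM were Nat10, an acetyltransferase of 18S rRNA, with 56.3 CPM in control against 0.517 in RO-3306 (-5.24), Mtrex, the exosome helicase (79.8 and 6.02 CPM; -3.52), and Bms1, a GTPase of the processome (46.7 and 4.77 CPM; -3.05). Nat10 was lower in all 4 sets and was found in 11 of 29 control and 2 of 37 RO-3306 cells. The highest were Nop9 (9.45 and 36.8 CPM; 1.85), Gnl2 (16.2 and 40.9 CPM; 1.28) and Rrp36 (59.8 and 143 CPM; 1.24). Genes for the cytosolic ribosomal proteins, which these factors assemble with the rRNA, summed to 60955 and 58277 CPM. Of 81 that reached 5 CPM none was called lower or higher, with a median of -0.12. They are short, with a median mRNA of 906 bases beside 2923 for the members. Relative to genes of similar mRNA length their median was -0.32, beside -0.35 for the members. Relative to genes of similar coding length it was -0.22, beside -0.21.

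Myc itself had 146 CPM in control against 107 in RO-3306 (-0.45), with 0.34 and 0.70 in sets B and C and -0.79 and -1.88 in A and D. Of its network of 11 genes, 8 could be called, 2 lower (25%, beside 24.2% of all genes) and 1 higher (12.5%, beside 12.2%). The higher one was Mxi1, which competes with MYC for MAX, at 14.2 and 63.4 CPM (2.09; higher in every set). Lists of S phase and G2/M phase genes had medians of -0.59 and -0.28, beside -0.22 for all genes. Called lower were 24.4% and 25.9%, beside 24.2% of all genes. Relative to genes of similar mRNA length the 2 medians were -0.38 and 0.03. Per cell, the S phase list had median sums of 4847 CPM in control against 2836 in RO-3306, and the G2/M list 7880 and 9702 CPM. Their part in the results on the ribosome biogenesis genes was not tested.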

How the data were processed

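Single-cell cDNA was made with SMART-seq v4, per the labels' protocols. The authors counted reads with featureCounts 2.0.3 over whole gene spans of the RefSeq annotation of GRCm39, splitting multi-mapped reads into fractions, per the file headers. The submitters' processing notes also name STAR and FastQC, without version. The deposited values are expected counts per gene. The headers give no strand option or option for reads over several genes.

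Counts of kept cells were summed per group and given as CPM (scaled to 1000000). A gene was called at a 2-fold difference (1 CPM added, mean of at least 5 CPM). The sums and ratios were tested on simulated data. Exact Poisson and Clopper-Pearson 95% intervals used rounded counts. Named in full were the 6 most abundant members, the 5 highest and 5 lowest ratios, and those past 2-fold with 1 sign in all sets. The members and lists were chosen with earlier results of these data known. Alternatives included TMM factors (edgeR 4.0.16) and DESeq2 1.42.0 size factors, used for scaling only. Python 3.11.15 and R 4.3.3 were used. Listed symbols without a row under that name were not used.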

Additional observations from a re-analysis of the deposited data

Results flagged for a closer look

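The libraries left out for too few counts or genes also held counts of the ribosome biogenesis genes. The 11 RO-3306 libraries left out had a summed level of 2819 CPM (2724 to 2918), above the 681 CPM (595 to 773) of the 19 control libraries left out. It rested on 3278 counts, of which library D4 gave 2500, and the control value on 232.5 counts, of which library C5 gave 168. Without those libraries, a setting chosen after seeing the data, the levels were 795 CPM (740 to 853) in RO-3306 and 199 CPM (152 to 252) in control. These libraries enter no comparison above.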

How the results depend on the processing

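No paired analysis was possible, because the labels name no culture and the shared numbers in the titles name single cells. No test of any kind was made. Of 19 alternatives, 16 were planned and 3 were chosen after seeing the data (like coding length, without Npm1, without control cell D10). The count called lower was 14 and ranged from 10 to 15 except relative to genes of similar mRNA length (9) or coding length (5). The count called higher was 2, and it was 0 with cells weighted equally or thinned, and 1 with 5 CPM added, at a minimum of 20 CPM, without set D or without the top cell of each gene, and 3 without set C. The median of -0.65 became -0.44 (TMM), -0.41 (DESeq2), -0.82 (thinned), -0.72 and -0.79 (without set B or D), -0.59 (without the top cells), -0.35 (like mRNA length) and -0.21 (like coding length). The summed ratio of -0.37 became -0.16 (TMM), -0.14 (DESeq2), -0.41 (thinned), -0.35 (cells weighted equally), -0.42 and -0.34 (without set A or D), -0.38 (without the top cells) and -0.55 (without Npm1). Utp20 changed sign without set B (2.21). Of 190 values of the 10 called members named in full, 172 stayed past 2-fold. Among the alternatives, the minimum of 20 CPM, no filter on low values and leaving out Npm1 cannot change the ratio of another gene. Values under those settings stayed past 2-fold by construction. With 1 sample per group, the spread between cultures is unknown. The causes of these shifts were not tested.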
